A study of Mus musculus with 3 samples.

Results

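The genes described here encode the machinery that makes, breaks down, reads and places cyclic AMP: the adenylyl cyclases (Adcy), the phosphodiesterases (Pde), the subunits of protein kinase A (Prkaca, Prkacb and Prkar) and the A-kinase anchoring proteins (Akap). Members were all genes with a probe set of their own whose symbol belongs to these families by name. There were 55 such genes among 19938 measured, covered by 59 probe sets: 10 cyclases, 24 phosphodiesterases and their subunits, 5 kinase subunits, 15 anchors and Pde4dip, a centrosome and Golgi protein that matches by name and is no phosphodiesterase. They were read on Affymetrix Mouse Gene 1.0 ST arrays, which sample transcripts through probes along their exons, in whole kidney of female CBL/6 mice aged 8 to 10 weeks. The NTS/PGE2 array came from mice injected once with sheep nephrotoxic serum (NTS, 13.5 ug per g of body weight), an antiserum that starts an immune glomerular nephritis, and then given prostaglandin E2 (PGE2, 5 ug per g) each day from day 2. The NTS array came from mice given the serum without PGE2, and the control array from mice given neither. Treated mice were killed on day 7. It is not given in the sources used here whether an array held RNA of 1 animal or of several.

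Cyclic AMP is made from ATP by adenylyl cyclases, which stimulatory G proteins switch on and inhibitory G proteins switch off. It frees the catalytic subunits of protein kinase A (PKA) from their regulatory subunits, anchoring proteins hold the kinase at particular places in the cell, and phosphodiesterases end the signal. PGE2 feeds into this pathway, since its EP2 and EP4 receptors raise cyclic AMP and its EP3 receptor lowers it. In the kidney the pathway is best known in the collecting duct, where vasopressin moves aquaporin-2 to the cell surface through cyclic AMP, and in renin-producing cells.

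Each group had 1 array, so nothing here could be checked on replicates, p-values were not calculated, and every difference describes these arrays only. Values are on the log2 scale as deposited, and differences are given in log2 units unless called a fold. The median over all probe sets was 7.14 in NTS/PGE2 kidney, 7.11 in NTS kidney and 7.11 in control kidney, and the 25th percentile, below which a value may be background, was 5.79, 5.78 and 5.77. All 10 proximal tubule markers examined lay above the 25th percentile on the 3 arrays, as the label kidney requires. The spread between 2 bright probe sets of one gene (460 genes) gave an SD of 0.20 for a difference of NTS from control, 0.21 for NTS/PGE2 from NTS and 0.12 for NTS/PGE2 from control; it holds technical spread and true differences between transcripts, and leaves out the spread between animals. Whole kidney was measured, so fewer cells of a type and less RNA per cell cannot be told apart.

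The sequence through which cyclic AMP reaches a promoter is the cAMP response element, TGACGTCA, and its shorter form TGACG. Both were searched on both strands of the 300 bases around each RefSeq gene start (250 before and 50 after, GRCm38.p6), for the 45 members with an entry and their 87 starts. The full element stood in 2 of the 87 member windows, against 1.79% of all 32851 windows; these were overlapping windows of Prkar1a that hold the same element. Counted by gene, it was 1 of 45 members, or 2.22%, against 2.03% of all 27025 genes. The short form, which every full element contains, stood in 17 of the 87 windows, or 19.5%, against 20.8% of all windows. By gene it stood in 15 of the 45 members, or 33.3%, against 23.0% of all genes, but the members had more listed starts per gene (87 for 45) than all genes (32851 for 27025). The windows below are shown because they cover the range met among members: Prkar1a, with the full element, Pde1a, with the short form at 1 of its 4 starts, and Prkar2b, the member with the largest difference, with no match at either listed start. Capitals mark the element. Pde7b, at its 1 listed start, had no match either. A match is a description of letters and not of a bound site.

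Prkar1a (chr11:109650699-109650998, + strand): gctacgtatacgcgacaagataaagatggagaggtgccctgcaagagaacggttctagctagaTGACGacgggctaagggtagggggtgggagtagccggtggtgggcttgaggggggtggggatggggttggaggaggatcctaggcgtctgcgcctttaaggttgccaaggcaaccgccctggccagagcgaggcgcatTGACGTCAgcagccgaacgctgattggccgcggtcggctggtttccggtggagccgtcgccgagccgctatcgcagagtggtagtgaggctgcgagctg
Pde1a (chr2:80038853-80039152, - strand): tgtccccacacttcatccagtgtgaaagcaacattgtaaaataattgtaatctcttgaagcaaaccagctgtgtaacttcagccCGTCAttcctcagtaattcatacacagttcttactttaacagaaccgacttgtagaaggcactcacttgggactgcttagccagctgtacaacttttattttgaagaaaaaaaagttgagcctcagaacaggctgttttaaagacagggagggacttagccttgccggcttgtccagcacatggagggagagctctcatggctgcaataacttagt
Prkar2b (chr12:32061228-32061527, - strand): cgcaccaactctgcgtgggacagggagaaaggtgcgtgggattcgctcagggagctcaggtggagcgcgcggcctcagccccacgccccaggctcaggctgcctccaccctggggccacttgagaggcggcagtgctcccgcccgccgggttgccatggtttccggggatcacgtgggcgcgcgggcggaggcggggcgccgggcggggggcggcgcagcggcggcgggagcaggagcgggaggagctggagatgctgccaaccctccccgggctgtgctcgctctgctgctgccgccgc

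In Prkar1a the full element began at position -49, counted from the start, and a separate short form at -187. In Pde1a the short form, on the reverse strand, began at position -166. Pde1a was picked as a member at least 2-fold different and Prkar2b for its largest difference. Unlike values among these 3 genes thus follow in part from the choice. Prkar1a read 10.91 on every array, Pde1a was lower on the NTS array alone, and Prkar2b was low on both arrays from serum-treated mice.

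Most of the cyclic AMP machinery differed little between the arrays, as most genes did, and 4 genes differed at least 2-fold. For NTS relative to control, 72.7% of members and 70.4% of all genes differed by at most 0.25. The shares were 70.9% and 70.9% for NTS/PGE2 relative to NTS, and 85.5% and 88.6% for NTS/PGE2 relative to control. Of members passing the filter given below, 10.3% differed 2-fold for NTS relative to control, beside 8.12% of all genes passing it. On the NTS array the regulatory subunit gene Prkar2b and the phosphodiesterase genes Pde1a and Pde7b were at least 2-fold lower than on the control array, and the anchor gene Akap12 exceeded its control value at least 2-fold. On the NTS/PGE2 array Pde1a and Akap12 lay within 0.13 of control, Pde7b lay 0.26 below it, and Prkar2b differed by -3.06. A gene entered a 2-fold count if the higher of its 2 values reached its array's median; 39 of 55 members did so for NTS relative to control, 39 for NTS/PGE2 relative to NTS and 38 for NTS/PGE2 relative to control.

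For NTS relative to control, 1 member was at least 2-fold higher and 3 were at least 2-fold lower, where 2.7% and 5.42% of all genes passing the same filter were. For NTS/PGE2 relative to NTS, 1 was higher and 1 lower, against 4.15% and 3.28% of all genes. For NTS/PGE2 relative to control, 0 were higher and 1 was lower, against 0.0607% and 0.659% of all genes. With 38 or 39 members in each count, these shares are near the background, and 1 gene moves them. The median difference over the 55 members was 0 in each comparison, as it was over all genes. Values identical on all 3 arrays, which the median polish of RMA often returns for small differences, made up 16 of the 55 members and 29.1% of all genes.

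At a lower threshold, which counts the 4 genes past 2-fold again, more members were lower than higher on the NTS array. Differences larger than the probe set SD were 12 lower and 6 higher among the 55 members for NTS relative to control, where 17.7% of all genes were lower and 16% higher by that much. For NTS/PGE2 relative to NTS, 12 members were higher and 4 lower, with 16.8% and 15.8% among all genes. For NTS/PGE2 relative to control, 6 were higher and 9 lower, with 12.3% and 14.4% among all genes. No share of members was far above the background. The 3 comparisons share arrays, so a low NTS value enters the first as a lower value and the second as a higher one.

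**Figure D1:**
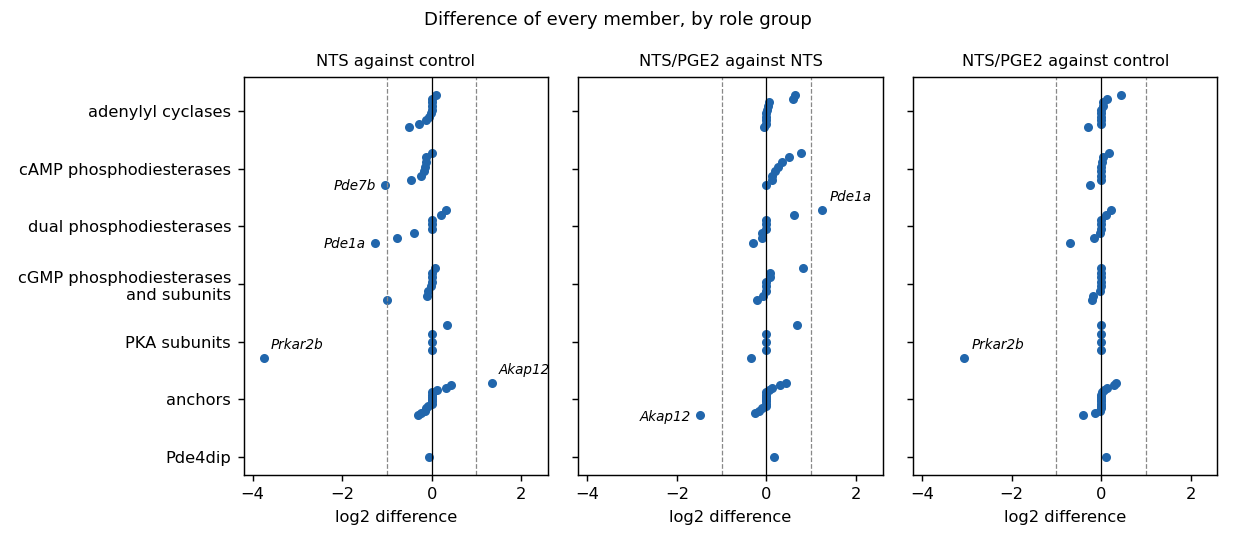
Log2 difference (horizontal axis) of each of the 55 members, 1 point per gene, in role groups down the page, with 1 panel for each comparison; dashed lines mark a 2-fold difference. Points crowd at 0 in every group, and only Prkar2b, Pde1a, Pde7b and Akap12 lie beyond the dashed lines, Prkar2b at -3.75 for NTS relative to control and -3.06 for NTS/PGE2 relative to control.

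The PKA subunits held the largest difference of all members beside genes that read the same on every array. Prkar2b encodes RIIβ, a regulatory subunit best known from brain and from fat, where mice without it are lean. It read 7.15 in NTS/PGE2 kidney, 6.46 in NTS kidney and 10.21 in control kidney. The control value stood far above the other 2, and the NTS value lay below its array's median but above its 25th percentile. Prkar2b was thus 13.4-fold lower for NTS relative to control, 8.35-fold lower for NTS/PGE2 relative to control, and 1.61-fold higher for NTS/PGE2 relative to NTS.

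The other subunits did not follow it. Prkar1a, the widely expressed RIα subunit, read 10.91 on all 3 arrays. Prkar2a, the RIIα subunit, read 8.94 on all 3, and Prkacb, a catalytic subunit, read 9.89 on all 3. Prkar1b, the RIβ subunit, read 8.00 in NTS/PGE2 kidney, 8.35 in NTS kidney and 8.00 in control kidney, which put the NTS array 0.35 above control. The catalytic subunit gene Prkaca was read only by a probe set shared with its neighbour Samd1, so it is no member by the rule; that probe set read 8.69 on all 3 arrays.

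Most of the fat genes examined were high on the same array as Prkar2b. Of 12 fat markers measured, 11 were lower on the NTS array than on control, including 9 past the 2-fold rule. Among all genes 30.2% were lower, and 5.42% of those passing the filter were at least 2-fold lower. The median difference of the 12 was -2.30, and Plin4 was 0.96 higher. For NTS/PGE2 relative to control, 11 were lower, with a median difference of -1.83. Of these 8 were past the rule, beside 0.659% of all genes passing the filter. The sum of their linear values was 6002 in NTS/PGE2 kidney, 3720 in NTS kidney and 19903 in control kidney. Ucp1, the uncoupling protein of brown fat, read 5.91, 5.72 and 11.84 on these arrays, and Adipoq, which encodes the fat hormone adiponectin, read 4.88, 4.70 and 9.18. Markers below the 25th percentile numbered 3 on the NTS/PGE2 array (Adipoq, Cidea and Lep), 4 on the NTS array (these and Ucp1) and 1 on the control array (Lep). The part of fat tissue in the Prkar2b difference was not tested.

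**Figure D2:**
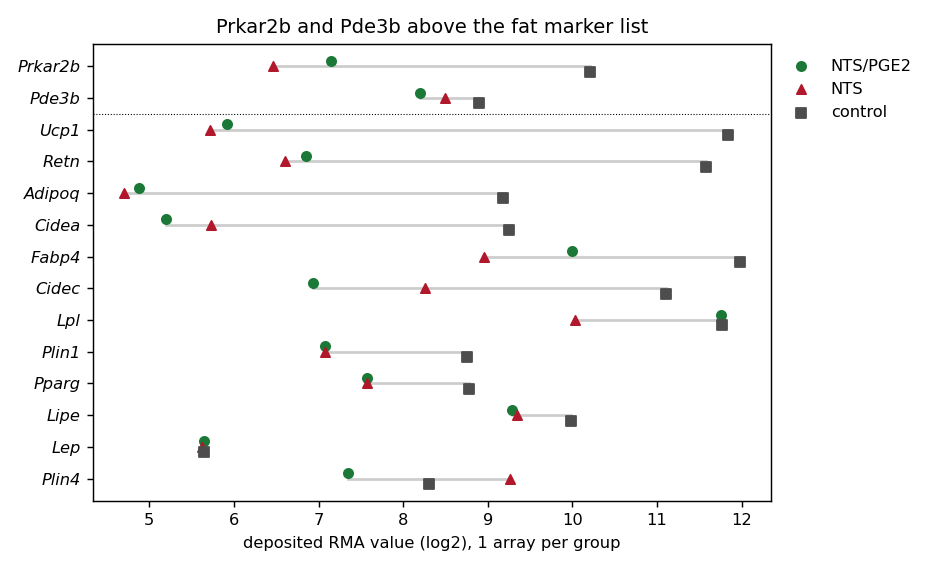
Deposited log2 value (horizontal axis) on the NTS/PGE2 array (circles), the NTS array (triangles) and the control array (squares) for Prkar2b and Pde3b, above the dotted line, and for the 12 fat markers below it, 1 gene per row. Prkar2b and most of the fat markers show the control square far to the right of the other 2 symbols, while Lpl read 11.75 on the NTS/PGE2 array and 11.77 on the control array.

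Among the anchors, Akap12 stood apart from the other 14. It encodes gravin (SSeCKS), a scaffold at the cell membrane that binds PKA and protein kinase C. Akap12 read 7.73 in NTS/PGE2 kidney, 9.20 in NTS kidney and 7.85 in control kidney. Only the NTS array was high: the gene was 2.55-fold higher for NTS relative to control and 2.79-fold lower for NTS/PGE2 relative to NTS, and NTS/PGE2 differed from control by -0.13.

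Akap1, which tethers PKA to the outer face of mitochondria, read 9.02 in NTS/PGE2 kidney, 9.12 in NTS kidney and 8.70 in control kidney, so both arrays from serum-treated mice lay above control, by 0.32 and 0.43. Akap13 was higher for NTS relative to control by 0.32 and differed by -0.26 for NTS/PGE2 relative to NTS. Akap8, a nuclear anchor, went the other way, with 10.04 in NTS/PGE2 kidney, 9.74 in NTS kidney and 10.04 in control kidney. Its relative Akap8l read 9.25, 8.82 and 8.96 on the same arrays and was highest on the NTS/PGE2 array. Akap7, whose AKAP18 isoforms include one that sits with PKA on aquaporin-2 vesicles, read 8.63, 8.80 and 9.04, with a difference of -0.41 for NTS/PGE2 relative to control.

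The remaining anchors were close on the 3 arrays. Akap11 (AKAP220), known from the collecting duct, had 3 probe sets that differed by -0.04 to -0.17 for NTS relative to control and by 0.04 to 0.09 for NTS/PGE2 relative to NTS. Akap10, found on endosomes and mitochondria, differed by -0.13 and 0.13 in these comparisons. Akap9, the scaffold of the Golgi and centrosome, read 9.60 on every array. Akap5, which gathers PKA at membrane receptors, lay below the median on the 3 arrays and differed by 0.12 for NTS relative to control. Akap3, Akap4 and Akap6, known from sperm and muscle, lay below the 25th percentile on all 3 arrays, and Akap14 and Akap17b read the same on all 3, below the medians. Akap2 was read only by a probe set it shares with Pakap, at 7.67 on all 3 arrays.

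The 8 phosphodiesterases that break down cyclic AMP alone ran in one direction, mostly by small amounts. On the NTS array 7 of 8 were lower than control and 1 was equal, where 30.2% of all genes, and 40.6% of those passing the filter as these 8 did, were lower by any amount. On the NTS/PGE2 array all 8 were higher than on the NTS array, Pde4b by 0.002 only, a difference of -0.02 once arrays were centred on their medians. Of all genes 35.1% were higher in this comparison, and 39.8% of those passing the filter. Both counts use the same NTS array, so a low NTS value enters each. The group's median was -0.17 for NTS relative to control, 0.22 for NTS/PGE2 relative to NTS and 0.004 for NTS/PGE2 relative to control. Lower by more than the probe set SD for NTS relative to control were 3 of 8 (Pde7b, Pde4d and Pde8a), beside 17.7% of all genes, and Pde4d read 0 there with its brightest probe set. Higher by more than the SD for NTS/PGE2 relative to NTS were 4 of 8, beside 16.8% of all genes.

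Pde7b, a high-affinity enzyme that rolipram does not block, had the largest difference of the group. It read 9.14 in NTS/PGE2 kidney, 8.36 in NTS kidney and 9.40 in control kidney. The NTS array was the low one, 2.06-fold below control and just past the 2-fold rule, and NTS/PGE2 was 1.72-fold above NTS. Its relative Pde7a differed by -0.18 and 0.18 in these comparisons. Pde8a, another high-affinity enzyme, read 10.13, 9.87 and 10.12 on the NTS/PGE2, NTS and control arrays, and Pde8b read 8.16, 8.04 and 8.17.

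The rolipram-sensitive Pde4 genes were led by Pde4d, which read 8.29 in NTS/PGE2 kidney, 7.79 in NTS kidney and 8.25 in control kidney as the mean of 3 probe sets. The probe sets disagreed. For NTS relative to control they differed by 0, -0.47 and -0.91, and for NTS/PGE2 relative to control by 0.27, 0.42 and -0.56. Pde4d makes many transcripts from separate starts, and the sources used here do not say which of them each probe set reads. Pde4c read 9.43, 9.08 and 9.24 on the NTS/PGE2, NTS and control arrays and Pde4a 7.19, 7.07 and 7.19. Pde4b read 7.95 on all 3 arrays to 2 decimals.

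The 8 phosphodiesterases that break down both cyclic AMP and cyclic GMP were mixed, with a median of 0 to 2 decimals in each comparison. Pde1a, an enzyme switched on by calcium and calmodulin, read 9.75 in NTS/PGE2 kidney, 8.51 in NTS kidney and 9.78 in control kidney. NTS alone was low, 2.41-fold below control, and NTS/PGE2 was 2.37-fold above NTS and within 0.03 of control. The other calmodulin-dependent genes, Pde1b and Pde1c, differed by at most 0.004. Pde2a, which cyclic GMP stimulates, read 9.24, 8.62 and 9.40 on the NTS/PGE2, NTS and control arrays, a 1.72-fold lower value for NTS relative to control.

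Pde3b ran differently. It encodes the cyclic GMP-inhibited enzyme through which insulin lowers cyclic AMP in fat cells, and it read 8.20 in NTS/PGE2 kidney, 8.49 in NTS kidney and 8.89 in control kidney. NTS/PGE2 was the lowest, 1.62-fold below control. Of the 12 fat markers described above, 11 were also lower than control on this array. They were not lowest there as a list: relative to NTS, 7 were higher and 4 lower, with a median difference of 0.02. The part of fat tissue in the Pde3b difference was not tested. Pde3a, its relative in heart and smooth muscle, read 8.20 on all 3 arrays. Pde11a, below the median of each array, read 6.90 in NTS/PGE2 kidney, 7.00 in NTS kidney and 6.66 in control kidney, and Pde10a was 0.21 higher for NTS relative to control.

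Of the 8 phosphodiesterase genes of cyclic GMP, most are retinal. Pde6b and Pde6c, the catalytic subunits of rods and cones, lay below the 25th percentile on all 3 arrays, and Pde6a, Pde6g and Pde6h lay below the medians. Pde6a read 6.47 in NTS/PGE2 kidney, 6.40 in NTS kidney and 6.51 in control kidney, and Pde6g read 6.60, 6.52 and 6.60. Pde6d was above the medians on all 3 arrays. It encodes a protein that binds the lipid tails of other proteins and carries them to the cilium and membranes, and is named for its purification with the rod enzyme. It read 10.37 in NTS/PGE2 kidney, 9.56 in NTS kidney and 10.55 in control kidney. NTS was 1.99-fold below control, just short of the 2-fold rule, and NTS/PGE2 was 1.75-fold above NTS. Pde9a, the cyclic GMP enzyme of highest affinity, read 9.52, 9.73 and 9.73 on the same arrays, so NTS/PGE2 was the low one, by -0.21 against control. Pde5a, the target of sildenafil, differed by 0.07 for NTS relative to control and by 0 for NTS/PGE2 relative to control.

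Among the 10 cyclases, none differed 2-fold in any comparison. Adcy6, a calcium-inhibited cyclase needed for the vasopressin response of the mouse collecting duct, read 10.12 in NTS/PGE2 kidney, 9.53 in NTS kidney and 9.67 in control kidney. It was highest with PGE2, 0.59 above NTS and 0.45 above control. Adcy4, a cyclase that G protein beta-gamma subunits stimulate, read 8.24 in NTS/PGE2 kidney, 7.60 in NTS kidney and 8.11 in control kidney, so NTS was the low one, by -0.51 against control, and NTS/PGE2 was 0.64 above NTS.

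Adcy3, the cyclase of smell that is also found in fat, read 7.42 on both arrays from serum-treated mice and 7.70 on the control array. Adcy9, a widely expressed cyclase, differed by at most 0.04 in any comparison. Adcy1, stimulated by calcium and calmodulin, read 7.86 in NTS/PGE2 kidney, 7.92 in NTS kidney and 7.82 in control kidney. Adcy5 was 0.05 lower for NTS relative to control and equal for NTS/PGE2 relative to control. Adcy2, Adcy7 and Adcy8 read the same on all 3 arrays, and Adcy8 and Adcy10, the bicarbonate-sensing soluble cyclase, lay below the 25th percentile throughout.

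**Figure D3:**
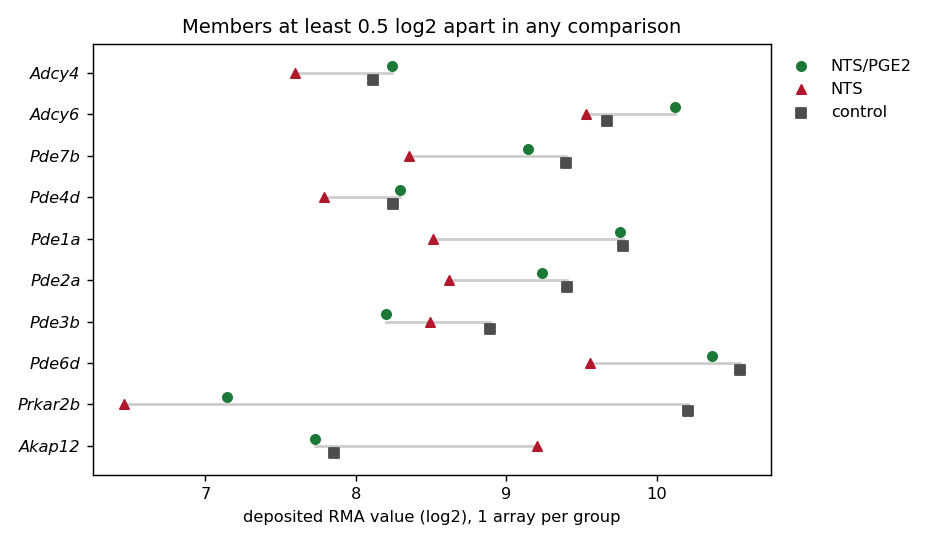
Deposited log2 value (horizontal axis) on the NTS/PGE2 array (circles), the NTS array (triangles) and the control array (squares) for the 10 members at least 0.5 apart in any comparison, 1 gene per row in order of role. For 6 of them, Adcy4, Pde7b, Pde4d, Pde1a, Pde2a and Pde6d, the NTS value lies left of the other 2, which lie close together; Adcy6 has its highest and Pde3b its lowest value on the NTS/PGE2 array, and Akap12 is high on the NTS array alone.

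Few members had a value on the NTS/PGE2 array beyond the range of the other 2 arrays. Adcy6 and Akap8l lay more than 0.25 above it, by 0.45 and 0.29, and Pde3b lay more than 0.25 below it, by 0.30. These 2 and 1 of 55 members compare with 2.36% of all genes above and 2.79% below.

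The rest of the pathway was followed through lists of receptors and G proteins, of other cyclic AMP effectors, of response genes and of cyclic GMP partners. Of 28 listed receptors and G proteins 22 were measured and 12 passed the filter. Of these 12, 0 were at least 2-fold higher and 2 at least 2-fold lower for NTS relative to control, beside 2.7% and 5.42% of all genes passing it. These were Avpr2, the vasopressin V2 receptor that raises cyclic AMP in the collecting duct, and Ptger3, the EP3 receptor. Avpr2 read 8.44 in NTS/PGE2 kidney, 6.96 in NTS kidney and 8.55 in control kidney, and Ptger3 read 8.99, 7.70 and 8.82. The same 2 were at least 2-fold higher for NTS/PGE2 relative to NTS, beside 4.15% of all genes, and 0 of the 12 differed 2-fold for NTS/PGE2 relative to control. Pth1r, the parathyroid hormone receptor of the proximal tubule, read 11.59, 10.94 and 11.74 on these arrays. The inhibitory G protein subunit gene Gnai2 was highest with serum alone, at 11.31 in NTS/PGE2 kidney, 11.86 in NTS kidney and 11.47 in control kidney, while Gnai1 and Gnai3 differed by at most 0.10. Ptger2 and Ptger4, the PGE2 receptors that raise cyclic AMP, read the same on all 3 arrays, Ptger2 below the 25th percentile.

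Effectors of cyclic AMP other than PKA, with the PKA inhibitors, had 12 of 14 genes measured. Of these 4 passed the filter and 0 differed 2-fold in any comparison. Among all genes passing it, 8.12% differed 2-fold either way for NTS relative to control. The share was 7.44% for NTS/PGE2 relative to NTS and 0.72% for NTS/PGE2 relative to control. A count over 4 genes is too small to be told from these shares. Rapgef3, the exchange factor Epac1, read 9.43 in NTS/PGE2 kidney, 9.27 in NTS kidney and 9.33 in control kidney. The inhibitor genes Pkia and Pkig differed by at most 0.12.

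Response genes and their regulators had 22 of 24 measured and 20 or 21 past the filter. For NTS relative to control, 0 were at least 2-fold higher and 1 lower, beside 2.7% and 5.42% of all genes passing it. The counts were 1 and 0 for NTS/PGE2 relative to NTS, beside 4.15% and 3.28%. For NTS/PGE2 relative to control they were 0 and 1, beside 0.0607% and 0.659%. With 20 or 21 genes in each count, 1 gene moves these shares. Creb1, the factor that PKA phosphorylates, read 9.31 in NTS/PGE2 kidney, 8.17 in NTS kidney and 9.14 in control kidney, so it was 2.20-fold higher for NTS/PGE2 relative to NTS. Its coactivator Crtc2 went the other way, with 9.53, 10.06 and 9.39. The clock gene Per1 read 9.89, 10.86 and 9.97, and Crem, which makes the repressor ICER, read 7.84, 7.54 and 7.81. Nr4a1, an immediate early target, was low on both arrays from serum-treated mice, with 8.35 and 8.30, against 9.52 on the control array. Fosb read 7.90 in NTS/PGE2 kidney, 7.40 in NTS kidney and 7.32 in control kidney, while Fos read 6.95, 6.95 and 7.34. Pck1, a gluconeogenic target, read 13.45 on all 3.

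Cyclic AMP export and cyclic GMP partners leaned one way. Of 9 genes, 8 were lower and 0 higher for NTS relative to control, with a median of -0.48. Among all genes 30.2% were lower, and 40.6% of those passing the filter. For NTS/PGE2 relative to NTS, 7 were higher and 0 lower, with a median of 0.42. Among all genes 35.1% were higher, and 39.8% of those passing the filter. Both counts use the same NTS array, so a low NTS value enters each. Of the 6 that passed the filter, 0 reached 2-fold in either. Abcc4, which exports cyclic AMP, read 9.98 in NTS/PGE2 kidney, 9.71 in NTS kidney and 10.41 in control kidney. The natriuretic peptide receptor genes Npr1, Npr2 and Npr3 were 0.66, 0.58 and 0.49 lower for NTS relative to control and 0.73, 0.65 and 0.55 higher for NTS/PGE2 relative to NTS.

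**Figure D4:**
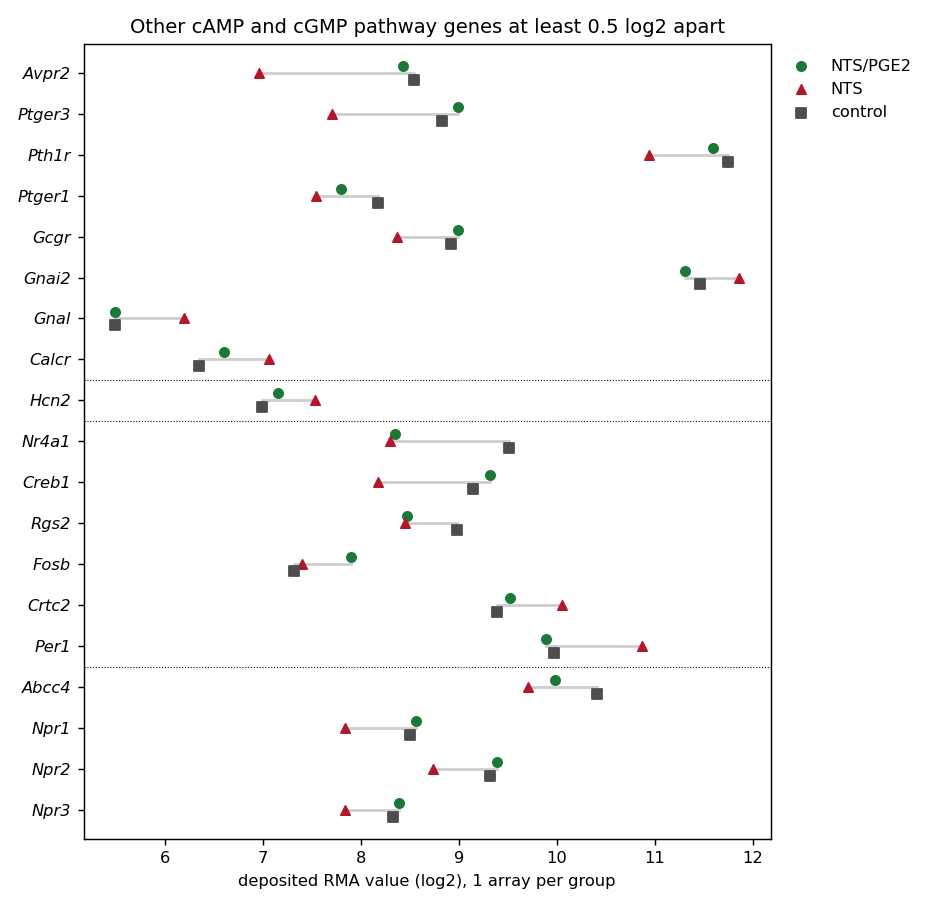
Deposited log2 value (horizontal axis) on the NTS/PGE2 array (circles), the NTS array (triangles) and the control array (squares) for the 19 genes of the 4 pathway lists at least 0.5 apart in any comparison, 1 gene per row. Dotted lines part, from the top, receptors and G proteins, other effectors, response genes and their regulators, and export with cyclic GMP partners; Avpr2 and Creb1 have their low value on the NTS array, and Nr4a1 its high value on the control array.

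Markers of endothelium and of the tubule segments were low on the NTS array, as were Pde1a, Pde7b, Pde2a, Pde6d and Adcy4, while podocyte markers were not low as a list. All 9 endothelial markers were lower for NTS relative to control, 7 past the 2-fold rule (median -1.67), and all 9 were higher for NTS/PGE2 relative to NTS (median 1.39). Among all genes 30.2% were lower in the first of these comparisons and 35.1% higher in the second. Of those passing the filter, 5.42% were at least 2-fold lower for NTS relative to control. Their summed linear value was 11846 in NTS/PGE2 kidney, 4430 in NTS kidney and 13700 in control kidney. The 10 proximal tubule markers had a median difference of -1.61 for NTS relative to control and 1.71 for NTS/PGE2 relative to NTS. Loop and distal tubule markers had -1.03 and 1.10 over 9 genes, and collecting duct markers -0.94 and 0.84 over 9. Of 5 podocyte markers, 3 were higher and 1 lower for NTS relative to control (median 0.02), and 2 were higher and 2 lower for NTS/PGE2 relative to NTS (median 0); Tcf21 differed by -1.88 and 1.77. Smooth muscle and pericyte markers were all 6 lower for NTS relative to control, with a median of -0.97. They stayed lower for NTS/PGE2 relative to control, with a median of -0.49. On both arrays from serum-treated mice Acta2 and Cnn1 were at least 2-fold below control, as Prkar2b was. Rgs5 lay only 0.05 below control on the NTS/PGE2 array. Tubular injury markers had the direction of Akap12 in 2 comparisons. For NTS relative to control all 8 were higher, with a median of 2.18, Krt19 by 0.09 only, beside 6540 of 19938 genes. For NTS/PGE2 relative to NTS all 8 were lower, with a median of -2.80, beside 5837 of 19938 genes. For NTS/PGE2 relative to control Akap12 differed by -0.13, and the injury markers were mixed, with a median of -0.36. Of these, 5 were lower, including 3 past the 2-fold rule, and 2 were higher. Macrophage markers were mixed (7 genes, median -0.17) for NTS relative to control, and of the 4 T cell markers 0 passed the filter. The part of any cell type in the members' differences was not tested.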

How the data were processed

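Kidney RNA (250 ng per array) of 3 groups, 1 array each, was read on Mouse Gene 1.0 ST arrays. The deposited values are log2 values that the authors made with Affymetrix Expression Console and RMA, per the submitters' processing notes; software versions and genome build: not given in the sources used here. Its algorithm, RMA, corrects background, equalises the arrays' distributions and summarises probes by median polish, which can return identical values for small differences. Of 35556 probe sets, 21789 had 1 gene symbol, 1621 had more than 1 and 12146 none in the annotation used. Symbols were checked by gene identifier against RefSeq of GRCm38.p6 (21698 matched, 0 altered).

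Probe sets of a gene were averaged, giving 19938 genes. Groups came from the labels. The 3 comparisons used the whole table, a filter at the array median and a size rule of 2-fold, with no test. Members and lists were chosen with earlier results of these data known. All members may be named; values on every array are given for members past 2-fold and for the 4 largest differences of each role group. Other named genes come from written lists. Alternatives were no filter or one at the 25th percentile, the brightest probe set, median centring, quantile normalization, added shared probe sets and a 1.5-fold rule. The calculation was tested on simulated data, with changes larger than the 2-fold rule put into bright genes only. That checks the code and does not bear on dim members or on the spread between animals. Python 3.11.15, numpy 2.4.6, pandas 2.3.3 and matplotlib 3.10.9 were used. The number of arrays limits the precision.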

Additional observations from a re-analysis of the deposited data

How the results depend on the processing

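The member counts at 2-fold were 4 for NTS relative to control, 2 for NTS/PGE2 relative to NTS and 1 for NTS/PGE2 relative to control, and were the same with no filter, with the filter at the 25th percentile, with the brightest probe set, with median centring, with quantile normalization and with the 2 shared probe sets added. With a 1.5-fold rule they were 6 (1 higher, 5 lower), 8 (7 higher, 1 lower) and 2 (0 higher, 2 lower); a lower threshold admits more genes by construction, and 19.6%, 18.9% and 2.71% of all genes passing the filter met it. The medians over members moved by at most 0.03 under median centring and 0.01 under quantile normalization. Over the 55 members and 3 comparisons, all 165 differences stayed within the probe set SD of their value under median centring and under quantile normalization. Median centring moves every difference of a comparison by the same amount, at most 0.03, so it could not do otherwise. RMA had already equalised the arrays' distributions, so quantile normalization could move little either. Its largest shift of a single member was 0.07. The 2 shared probe sets read the same on all 3 arrays, so adding them could not change a 2-fold count. The brightest probe set can change only the 2 members with 3 probe sets, Akap11 and Pde4d; the 3 differences of Pde4d moved further, to 0 for NTS relative to control, 0.27 for NTS/PGE2 relative to NTS and 0.27 for NTS/PGE2 relative to control. No paired analysis was possible because each group had 1 array, and no array could be left out. No scanner values were used here, so dim genes could not be set against background.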
